A study of Mus musculus with 6 samples.

Results

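Interferon-stimulated genes were examined in mouse bone marrow-derived macrophages that were either exposed to resolvin D1 (RvD1) for 6 h or left untreated. The 32 genes were taken by symbol from a list of antiviral sensors, transcription factors and effectors. That list was chosen with earlier results of these data known. All 32 were found in the table of 38087 genes, 1 row each, and all 32 were above 0 in at least 3 libraries and entered the test with 18867 other genes. Marrow came from male C57BL/6J mice, aged 8 to 10 weeks in the protocol and 2 to 4 months in another label. Cells were differentiated with the growth factor M-CSF, at 10 ng/ml over 7 days, and then kept without it for 24 h. The treated group received 10 nM RvD1 for 6 h. There were 3 libraries per group, no vehicle for the untreated cells is described, and it is not recorded if a group's libraries are from separate mice or cultures, so the tests measure the spread between these libraries, which may be technical. RvD1 is a lipid mediator made from docosahexaenoic acid, and the series concerns its receptor ALX/FPR2 in myeloid cells during recovery of blood flow in a limb.

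Type I interferons bind a receptor made of IFNAR1 and IFNAR2, and the kinases JAK1 and TYK2 then phosphorylate STAT2 and other STAT factors. STAT2 and IRF9 are subunits of the complex ISGF3, which binds the interferon-stimulated response element in the promoters of antiviral genes. Macrophages keep a low constant output of these genes from small amounts of interferon, and several products, among them IRF7 and STAT2, feed back into the pathway.

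With RvD1, 0 of the 32 genes passed the test (limma over 18899 genes, Benjamini-Hochberg adjusted p under 0.05), where 1.12% of all tested genes did, 0.561% higher and 0.556% lower. A fit with the replicate number as a block called 8 of the 32 higher and 0 lower. In that fit 5.55% of all tested genes were higher and 4.48% lower. The labels do not say that the numbers pair the libraries. Over genes, deviations from the group means correlated between libraries numbered 1 (0.30) and 3 (0.42) but not between those numbered 2 (-0.08). Deviations sum to 0 within a group, so the value for number 2 is fixed by those of the other libraries. The correlations therefore do not settle a pairing. The point estimates were mostly above 0: 28 of 32 were positive (32 once values are corrected for the length and GC content of transcripts), against 50.8% of all tested genes, and the median log2 fold change was 0.31, against 0.00 over all tested genes. At p under 0.05 before adjustment, 7 members were higher and 0 lower (Rsad2, Cmpk2, Gbp3, Trim25, Ifit2, Zbp1 and Usp18), where 10.3% of all tested genes were higher and 9.65% lower. In no member did the groups separate, although 12.6% of all tested genes had every RvD1 value above every untreated value and 12.8% every RvD1 value below. The larger differences lay between replicates: 31 of 32 were highest in replicate 3 among the untreated libraries, and 30 of 32 were highest in replicate 3 among the RvD1 libraries.

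**Figure D1:**
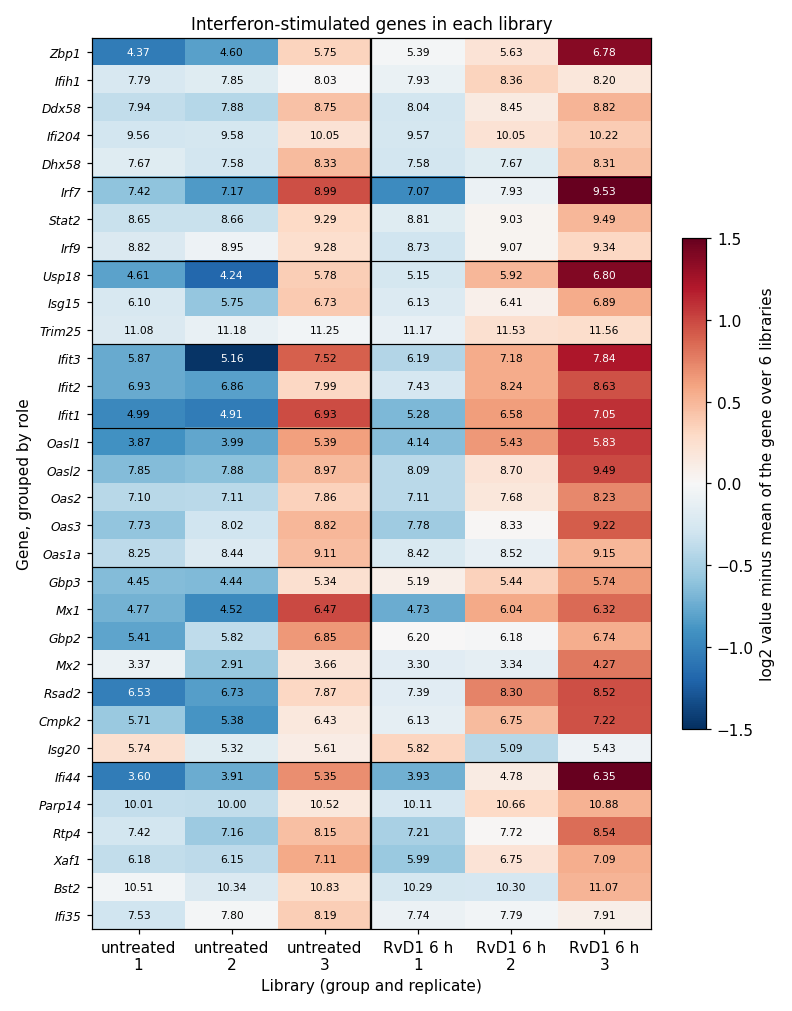
Each row is 1 of the 32 genes, grouped by role and ordered by fold change within a role, and each column is a library. Printed numbers are log2 normalized reads and colours show the difference from the mean of the gene over the 6 libraries, with red above and blue below. Replicate 3 is red in both groups for nearly every gene, and RvD1 replicate 1 is the lowest of its group in 30 of the 32, although above both untreated replicates 1 and 2 in 18.

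The promoter is where the pathway meets these genes, so the 250 bases before the RefSeq start site (GRCm38.p6, the assembly that mm10 stands for) are shown for 5 members. Capitals mark matches on either strand to GAAA, any 2 bases and GAAA again, the core of the response element. Rsad2, Isg15 and Ifit3 hold matches, and Ifit2 and Oasl1, which moved between libraries in the same way, hold none in these windows.
Rsad2 (chr12:26456453-26456702, minus strand): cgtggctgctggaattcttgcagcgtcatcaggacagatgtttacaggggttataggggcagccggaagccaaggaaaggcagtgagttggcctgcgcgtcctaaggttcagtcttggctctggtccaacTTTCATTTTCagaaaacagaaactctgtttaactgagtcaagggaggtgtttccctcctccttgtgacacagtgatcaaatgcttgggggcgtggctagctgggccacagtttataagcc
Isg15 (chr4:156200819-156201068, minus strand): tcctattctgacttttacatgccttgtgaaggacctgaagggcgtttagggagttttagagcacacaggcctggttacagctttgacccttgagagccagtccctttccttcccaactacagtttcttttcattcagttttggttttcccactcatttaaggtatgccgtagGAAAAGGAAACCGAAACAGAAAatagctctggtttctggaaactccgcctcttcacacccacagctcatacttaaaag
Ifit3 (chr19:34583279-34583528, plus strand): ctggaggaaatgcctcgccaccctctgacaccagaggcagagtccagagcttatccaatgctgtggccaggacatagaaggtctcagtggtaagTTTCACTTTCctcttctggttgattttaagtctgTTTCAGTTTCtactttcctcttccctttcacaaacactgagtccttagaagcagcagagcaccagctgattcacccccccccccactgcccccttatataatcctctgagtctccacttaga
Ifit2 (chr19:34550444-34550693, plus strand): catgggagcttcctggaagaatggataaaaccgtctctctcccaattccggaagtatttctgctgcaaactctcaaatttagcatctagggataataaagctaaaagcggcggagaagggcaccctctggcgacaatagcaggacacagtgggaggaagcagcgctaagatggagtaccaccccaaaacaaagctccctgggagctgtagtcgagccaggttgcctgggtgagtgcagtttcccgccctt
Oasl1 (chr5:114922990-114923239, plus strand): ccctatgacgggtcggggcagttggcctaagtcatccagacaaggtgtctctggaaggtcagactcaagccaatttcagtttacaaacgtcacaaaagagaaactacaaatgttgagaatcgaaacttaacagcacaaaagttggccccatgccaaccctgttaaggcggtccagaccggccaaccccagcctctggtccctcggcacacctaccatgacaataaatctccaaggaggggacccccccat

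Isg15 holds 3 overlapping matches that begin 78, 72 and 66 bases before the start, Ifit3 holds 2 that begin 156 and 122 bases before it, and Rsad2 holds 1 that begins 120 bases before it. Of the 32 members, 23 had a promoter in the RefSeq table, and 10 of these 23 (43.5%) held the core in at least 1 window: Bst2, Gbp2, Gbp3, Ifit1, Ifit3, Isg15, Oas1a, Oas3, Rsad2 and Stat2. Over all 27025 genes with a promoter of this length, 3.46% held it. The palindrome TTC, any 3 bases and GAA, a form of element bound by dimers of STAT factors, was found in 4 of the 23 (Bst2, Ifit2, Isg20 and Oas1a; 17.4%) and in 8.13% of all genes. A match is a description of the letters and not a bound site.

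Values below are log2 normalized reads as the authors deposited them, in which a difference of 1 is a doubling. Fold changes compare RvD1 with untreated and carry the 95% interval of the limma fit with n = 3 per group. In the 32 genes that interval included no change in 25 and a 2-fold rise in 17, and some, such as that of Ifit1, included both. For such genes the fit did not tell a 2-fold rise from no change.

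Viperin, the product of Rsad2, makes a chain-terminating nucleotide that stops viral RNA synthesis. Rsad2 stood at 6.53, 6.73 and 7.87 in the untreated replicates 1, 2 and 3, and at 7.39, 8.30 and 8.52 in RvD1 replicates 1, 2 and 3. Untreated replicate 3 lay above RvD1 replicate 1, so the groups overlapped by that value. The fold change was 2.03 (1.12 to 3.69; limma adjusted p = 0.184), the smallest p among the members. Cmpk2, a mitochondrial nucleotide kinase whose gene faces away from Rsad2 (chr12:26442746-26456452, minus strand, mm10) with 12751 bases between them, had means of 5.84 ± 0.54 and 6.70 ± 0.54 (SD, n = 3) and a fold change of 1.82 (1.10 to 3.02; limma adjusted p = 0.187). Isg20, an exonuclease that degrades RNA, differed from the rest: it stood at 5.74, 5.32 and 5.61 in untreated and at 5.82, 5.09 and 5.43 in RvD1 libraries. Its highest library was replicate 1 in both groups, and its log2 fold change of -0.11 (SE 0.22) was the lowest of the 32 (0.07 after the length and GC correction).

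IFIT proteins, encoded on chromosome 19, bind foreign RNA ends and block their translation. Ifit2 stood at 6.93, 6.86 and 7.99 in untreated and at 7.43, 8.24 and 8.63 in RvD1 libraries, a fold change of 1.79 (1.02 to 3.13; limma adjusted p = 0.236). Ifit1 stood at 4.99, 4.91 and 6.93 in untreated and at 5.28, 6.58 and 7.05 in RvD1 libraries. Untreated replicate 3 of Ifit1 lay above RvD1 replicate 2 and just under RvD1 replicate 3, and its fold change of 1.62 had an interval from 0.637 to 4.10. Ifit3 gave 1.85 (0.733 to 4.67), with 5.16 in untreated replicate 2 and 7.52 in untreated replicate 3. The neighbouring copy Ifit3b, which is no member, gave 1.94 (0.767 to 4.91), and reads of these near-identical genes could have been split between them.

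The sensors recognise viral or displaced nucleic acids. Zbp1, which binds Z-form nucleic acid, stood at 4.37, 4.60 and 5.75 in untreated and at 5.39, 5.63 and 6.78 in RvD1 libraries, with a fold change of 2.04 (1.03 to 4.05; limma adjusted p = 0.236). An estimated 17 to 38 reads stood behind its untreated values. Ddx58, which encodes the RNA sensor RIG-I, stood at 7.94, 7.88 and 8.75 in untreated and at 8.04, 8.45 and 8.82 in RvD1 libraries, with a fold change of 1.18 (0.796 to 1.76). Only untreated replicate 3 kept the Ddx58 groups from separating. Ifih1, the sensor MDA5, had a narrower spread, with 7.89 ± 0.12 and 8.16 ± 0.22 (SD, n = 3) and a fold change of 1.21 (0.999 to 1.46). Dhx58, the regulator LGP2, gave 0.995 (0.687 to 1.44) and the DNA-binding Ifi204 1.16 (0.875 to 1.55).

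Among the transcription factors, Irf7, the amplifier of interferon transcription, had the widest spread of all members. It stood at 7.42, 7.17 and 8.99 in untreated and at 7.07, 7.93 and 9.53 in RvD1 libraries. RvD1 replicate 1 was thus the lowest of the 6 libraries and RvD1 replicate 3 the highest, and the interval of its log2 fold change of 0.32 ran from -1.12 to 1.75. Stat2, a subunit of ISGF3, stood at 8.65, 8.66 and 9.29 in untreated and at 8.81, 9.03 and 9.49 in RvD1 libraries (fold change 1.19, 0.855 to 1.64; limma adjusted p = 0.557). Irf9, its DNA-binding partner, gave 1.02 (0.788 to 1.31).

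ISG15 is a ubiquitin-like protein that is attached to other proteins, and USP18 removes it and also damps signalling at the interferon receptor. Isg15 stood at 6.10, 5.75 and 6.73 in untreated and at 6.13, 6.41 and 6.89 in RvD1 libraries (fold change 1.22, 0.793 to 1.86). Usp18 had the highest log2 fold change of the 32, at 1.08 (SE 0.47; limma adjusted p = 0.250), and its untreated values rest on an estimated 20 to 39 reads. Its values were 4.61, 4.24 and 5.78 in untreated and 5.15, 5.92 and 6.80 in RvD1 libraries, so RvD1 replicate 1 again lay below untreated replicate 3. Trim25, a ubiquitin ligase that acts on RIG-I, had the smallest spread, with 11.08, 11.18 and 11.25 in untreated and 11.17, 11.53 and 11.56 in RvD1 libraries. RvD1 replicate 1 lay between the untreated values, and the fold change was 1.19 (1.01 to 1.40; limma adjusted p = 0.233). Without RvD1 replicate 1, Trim25 was the 1 member past the test (limma adjusted p = 0.0412).

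The oligoadenylate synthetases sense double-stranded RNA and activate RNase L, and the OAS-like proteins have other antiviral roles. Their genes lie in clusters on chromosome 5 together with Oas1b, Oas1c and Oas1g, and reads of close copies could have been split between them. Oasl1 stood at 3.87, 3.99 and 5.39 in untreated and at 4.14, 5.43 and 5.83 in RvD1 libraries, with a fold change of 1.64 (0.734 to 3.67). Its untreated values rest on an estimated 12 to 30 reads. Oasl2, Oas2, Oas3 and Oas1a gave 1.44, 1.24, 1.19 and 1.07, and every interval included no change. All 5 genes were highest in replicate 3 and lowest in replicate 1 of the RvD1 group.

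Mx and guanylate-binding proteins (Gbp2 and Gbp3 lie on chromosome 3) are dynamin-like GTPases that trap viral particles or coat the membranes of pathogens. C57BL/6J mice carry a deletion in Mx1 that disrupts the protein, and Mx2 is annotated as a polymorphic pseudogene, so both are read here as transcripts only. Mx1 stood at 4.77, 4.52 and 6.47 in untreated and at 4.73, 6.04 and 6.32 in RvD1 libraries. The highest of the 6 was therefore an untreated library, and the fold change was 1.36 (0.566 to 3.26). Gbp3 stood at 4.45, 4.44 and 5.34 in untreated and at 5.19, 5.44 and 5.74 in RvD1 libraries, with a fold change of 1.64 (1.05 to 2.55; limma adjusted p = 0.207). Gbp2 gave 1.27 (0.744 to 2.16) and Mx2, which rests on an estimated 8 to 19 reads, 1.25 (0.721 to 2.18).

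In the remaining effectors, Parp14, an ADP-ribosyltransferase, stood at 10.01, 10.00 and 10.52 in untreated and at 10.11, 10.66 and 10.88 in RvD1 libraries (fold change 1.30, 0.943 to 1.78; limma adjusted p = 0.344). Ifi44, whose product limits virus growth, ranged from 3.60 to 5.35 in untreated and from 3.93 to 6.35 in RvD1 libraries. Bst2, or tetherin, which holds budding virus at the cell surface, gave 0.993 (0.717 to 1.38). Rtp4, Xaf1 and Ifi35 gave 1.19, 1.09 and 0.983.

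**Figure D2:**
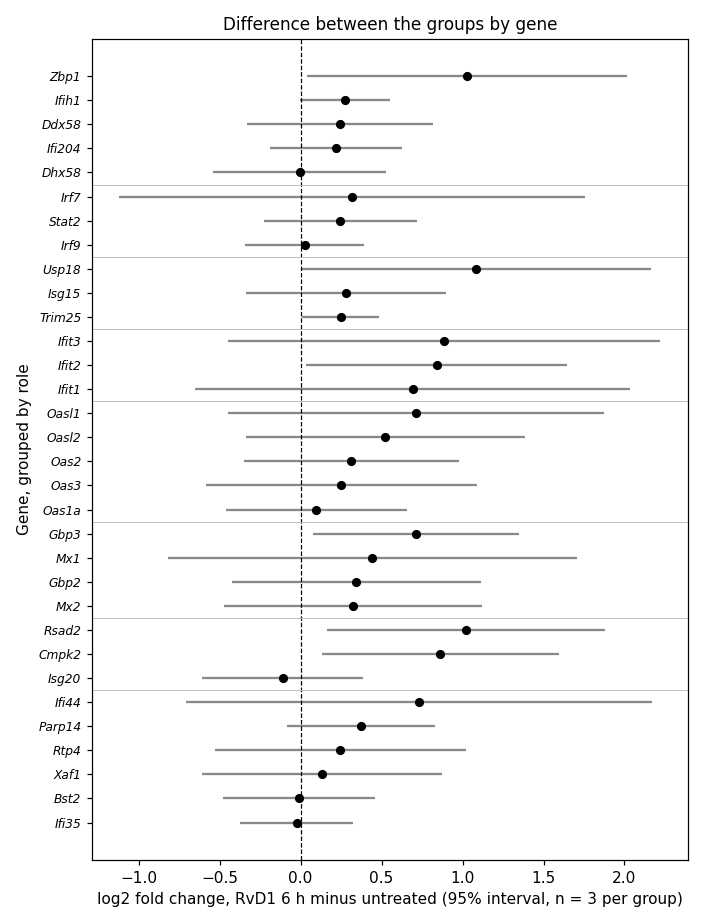
Points give the log2 fold change of each gene, RvD1 6 h minus untreated, and lines its 95% interval from the limma fit, with n = 3 libraries per group and genes grouped by role. Most points lie to the right of 0, and 25 of the 32 intervals cross 0.

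The overlap came from the same libraries in nearly all genes. Untreated replicate 3 lay above RvD1 replicate 1 in 31 of 32 members, above RvD1 replicate 2 in 22 and above RvD1 replicate 3 in 6. Averaged over the 32 genes, untreated replicates 1, 2 and 3 had a log2 level of 6.81, 6.76 and 7.73, and RvD1 replicates 1, 2 and 3 one of 7.0, 7.50 and 8.05. Within the untreated group, replicate 3 exceeded the mean of replicates 1 and 2 in 32 of 32 members, by a median of 0.87 and by up to 2.00 in Ifit3. In the RvD1 group the same difference was positive in 31 of 32, with a median of 0.75 and a highest value of 2.03 in Irf7. Over tested genes with a mean level of at least 5, its median was 0.00 in both groups. Replicate 3 was the highest of its group in both groups for 30 of 32 members (93.8%), against 15.9% of all tested genes.

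RvD1 replicate 2 also stood apart from RvD1 replicate 1, with 30 of 32 members higher by a median of 0.50. Untreated replicates 1 and 2 lay close together, with a median difference of -0.01 and 15 of 32 members higher in replicate 2. All 3 RvD1 values lay above both of these untreated libraries in 17 members, and RvD1 replicate 2 alone lay above both in 28. With untreated replicate 3 left out, 17 members separated (where 17.4% of all tested genes were higher), 18 were higher at an unadjusted p under 0.05 (8.65% of all tested genes) and the median log2 fold change was 0.56, but 0 passed after adjustment (limma, lowest adjusted p = 0.133). Without RvD1 replicate 1 the median was 0.57 and 10 members separated, where 19.8% of all tested genes were apart and higher. Without RvD1 replicate 3 it was 0.08 with 22 positive members, and without untreated replicate 1 or 2 it was 0.20 or 0.18.

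**Figure D3:**
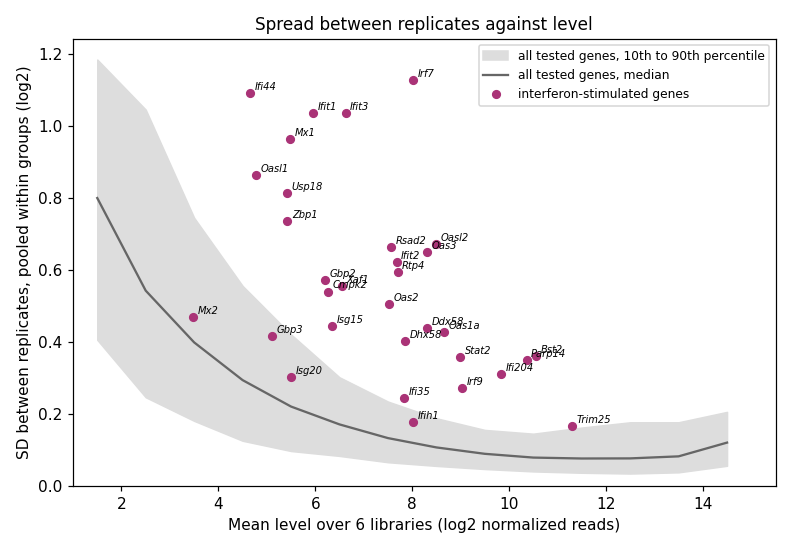
The vertical axis is the SD between replicates, pooled within the groups, and the horizontal axis the mean level over the 6 libraries, both on the log2 scale. The grey band spans the 10th to 90th percentile of all tested genes at each level and the line their median; most of the 32 named points lie above the band, with Irf7 at 1.13.

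The SD between replicates, pooled within groups, had a median of 0.52 over the 32 genes. Tested genes within 1 log2 unit of each member's mean level had a median SD of 0.13, and the members' ratio to it ranged from 1.19 for Mx2 to 9.69 for Irf7, with a median of 3.68. In 28 of 32 members the SD was larger than in 90% of the genes of like level. The exceptions were Mx2, Isg20, Ifih1 and Gbp3. At least 100 estimated reads in every library stood behind 17 of the 32. A wide spread was also seen outside the members. Over the marker lists, which differ in level, the median SD ranged from 0.18 (9 macrophage markers) to 0.84 (7 neutrophil markers). It was 0.61 over 4 endothelial markers.

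Upstream in the pathway, the median SD was 0.10 over 9 receptors and kinases, 0.13 over 9 other STAT and IRF factors and 0.56 over the 3 ligands tested. These lists differ in level from the members, and the SD depends on the level, so the values are not compared. Of 23 interferon and related ligand genes, 19 were listed at 0 in all 6 libraries, among them Ifnb1 and 13 interferon alpha genes, and Ebi3, a subunit of interleukin-27, was the highest at 6.71 ± 0.29 and 6.72 ± 0.12 (SD, n = 3). Of the 9 receptors and kinases, 0 passed and all 9 were positive (median log2 fold change 0.12), against 50.8% of all tested genes. Before adjustment 4 were higher at p under 0.05, against 10.3% of all tested genes. Replicate 3 was the highest library in both groups for 7 of the 9 (77.8%), against 15.9% of all tested genes. The kinase Jak2 stood at 9.17, 9.29 and 9.35 in untreated and at 9.50, 9.51 and 9.55 in RvD1 libraries, so its groups did not overlap, as in 25.4% of all tested genes, and its fold change was 1.19 (1.07 to 1.32; limma adjusted p = 0.0918). The receptor chain Ifnar1 gave 1.15 (1.02 to 1.29; limma adjusted p = 0.181) and Ifnar2 1.05 (0.930 to 1.18).

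Of 9 other STAT and IRF factors, 0 passed, and before adjustment 2 were lower (p under 0.05) and 0 higher. At that threshold 9.65% of all tested genes were lower and 10.3% higher. Irf5 gave 0.842 (0.743 to 0.955; limma adjusted p = 0.142), and Irf3, which turns on interferon genes, 0.859 (0.762 to 0.969; limma adjusted p = 0.164). Irf1 gave 0.958 (0.810 to 1.13). Of 14 negative regulators 0 passed (before adjustment, 2 higher and 0 lower, beside the same shares of all tested genes). The smallest p among them belonged to Tnfaip3, which restrains NF-kB, at 1.18 (1.09 to 1.29; limma adjusted p = 0.0710). Socs1, a brake on the receptor kinases, gave 0.903 (0.568 to 1.43).

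Of 17 adaptors, sensors and kinases that lead to interferon production, Tlr4 alone rose, and 0 fell. Over all tested genes 0.561% were higher and 0.556% lower. Tlr4, the receptor for lipopolysaccharide, stood at 10.16, 10.18 and 10.11 in untreated and at 10.43, 10.64 and 10.59 in RvD1 libraries, with no overlap, and rose 1.32-fold (1.19 to 1.46; limma adjusted p = 0.0387). With values corrected for the length and GC content of transcripts its log2 fold change went from 0.40 to 0.22 and the call ended (limma adjusted p = 0.157). The call also ended when any library but RvD1 replicate 1 was left out (limma adjusted p from 0.104 to 0.156).

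Of 60 further interferon-stimulated genes, 58 were tested and 0 passed. Before adjustment 7 were above and 1 below at p under 0.05, where 10.3% of all tested genes were higher and 9.65% lower. Of the 58, 44 were positive, against 50.8% of all tested genes, and the median log2 fold change was 0.27. Replicate 3 was the highest library in both groups for 44 of the 58 (75.9%), and their median SD was 0.38. The smallest p belonged to Parp11, a mono-ADP-ribosyltransferase, at 1.34 (1.10 to 1.63; limma adjusted p = 0.116). Cxcl10, a chemokine that attracts T cells, stood at 3.19, 4.63 and 5.58 in untreated and at 5.51, 5.66 and 5.37 in RvD1 libraries. Its untreated values spanned over 2 log2 units while the RvD1 values lay close together, and its fold change of 2.06 had an interval from 0.933 to 4.56 (limma adjusted p = 0.291).

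Markers of other cells moved between the same libraries. All 9 macrophage markers were above 1 in every library, and Adgre1, which encodes F4/80, ranged from 12.82 to 13.28. Summed, they reached 16.62, 16.74 and 16.99 (log2) in the untreated and 16.68, 16.82 and 17.04 in the RvD1 libraries, highest in replicate 3 of each group. Of 7 neutrophil markers, all tested, 7 were highest in replicate 3 of the untreated and 6 of the RvD1 group. Summed, they reached 11.70, 12.36 and 13.51 in the untreated and 12.03, 12.56 and 13.43 in the RvD1 libraries. S100a9, an abundant neutrophil and monocyte protein, stood at 10.31, 10.99 and 12.21 in untreated and at 10.65, 11.23 and 12.03 in RvD1 libraries. Between untreated replicates 1 and 2 the summed neutrophil level went from 11.70 to 12.36, where the median interferon-stimulated gene differed by -0.01. Between RvD1 replicates 1 and 2 this level went from 12.03 to 12.56, where the median interferon-stimulated gene differed by 0.50. The monocyte gene Ly6c2 ran from 5.42 to 6.96 in untreated and from 5.07 to 7.06 in RvD1 libraries, with both highest values in replicate 3.

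Endothelial and fibroblast markers took another order. The sum of 4 endothelial markers came to 9.08, 8.34 and 8.68 in the untreated and 10.20, 8.71 and 9.21 in the RvD1 libraries, highest in replicate 1 of each group, and that of 5 fibroblast markers to 15.46, 15.24 and 15.37 in the untreated and 15.73, 15.09 and 15.31 in the RvD1 libraries. Plasmacytoid dendritic cells make much interferon, and their markers Siglech and Ccr9 stayed at or below 3.16 and Klk1 was at 0 in all libraries, while Tcf4, which other cells also express, carried nearly all of the list's summed level of 9.59 to 9.73 in untreated and 9.79 to 9.94 in RvD1 libraries. Conventional dendritic cell markers (7 genes) summed to 7.23 to 7.28 in untreated and 7.12 to 7.34 in RvD1 libraries. The sums for 4 monocyte markers were 9.21 to 9.62 and 9.39 to 9.99, and those for 5 mast cell and basophil markers 6.30 to 6.78 and 6.62 to 7.57. In the B cell list Ms4a1 and Pax5, and in the T and NK cell list Cd3e and Cd3g, were at 0 in every library, with sums of 4.83 to 5.52 and 5.08 to 5.39 for B cells and 0.00 to 1.46 and 0.00 to 0.99 for T and NK cells. In all marker lists 0 genes passed the limma test without a block. Cd14, Tcf4, Ly6g and Kdr, 4 in all, were higher at p under 0.05 before adjustment, and 0 were lower. At that threshold 10.3% of all tested genes were higher and 9.65% lower. With the replicate block, 3 of 4 endothelial, 2 of 9 macrophage, 1 of 7 neutrophil and 1 of 5 mast cell and basophil markers passed higher. In that fit 1 macrophage marker passed lower, where 5.55% of all tested genes were higher and 4.48% lower. All 4 endothelial markers were positive (median log2 fold change 0.69). In bulk RNA, fewer cells of a type and less RNA per cell cannot be told apart, and the part of these markers in the spread of the interferon-stimulated genes was not tested.

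**Figure D4:**
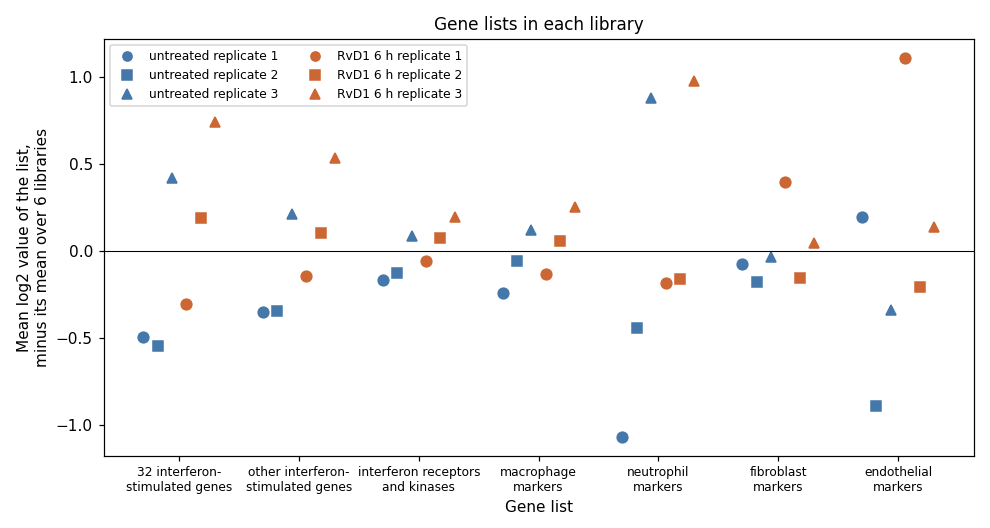
For each gene list, points give the mean log2 value of its tested genes in each library minus the mean over the 6 libraries, in blue for untreated and orange for RvD1 6 h, with circles, squares and triangles for replicates 1, 2 and 3. Triangles are highest in their group for both interferon-stimulated lists, the interferon receptors and kinases, and the macrophage and neutrophil markers. The circle of RvD1 replicate 1 is highest for fibroblast and endothelial markers, although among untreated libraries the triangle is highest for fibroblast markers.

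Depth also differed between the libraries. The step that stands for 1 read put the untreated libraries at an estimated 10.2, 14.3 and 9.06 M reads (replicates 1, 2 and 3) and the RvD1 libraries at 16.3, 11.2 and 12.8 M. The libraries high in interferon-stimulated genes, replicate 3 of each group, were the shallowest and the second deepest of their groups. The library with the lowest mean over the 32 genes, untreated replicate 2 and RvD1 replicate 1, was the deepest of its group. The part of depth in the spread was not tested.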

How the data were processed

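Poly-A selected RNA libraries were made from 100 to 400 ng of RNA with a TruSeq kit, per the labels' protocols. The submitters' processing notes name TopHat2 2.0.7 and mm10. How reads were counted, with which annotation and scaling, is not given in the sources used here. Values deposited in a single table are called normalized, per the file headers. These deposited values were read as log2 normalized reads because they run from 0 to 17.4 and their antilogs sum to 12.4 to 12.8 M in every library. An exact 0 stands for 1 normalized read or fewer, and folds near that floor understate the change. Of values worth up to 20 reads, 40.8% to 51.3% lay within 0.02 reads of whole, which did not recover whole reads, so no count test was run, and read numbers are estimates. No 2 libraries agreed within counting noise (variance 4.36 to 16.4 times that of counting).

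The 18899 genes above 0 in at least 3 libraries were tested with limma 3.58.1 in R 4.3.3 (treatment alone, variance prior following the mean, 4.62 prior degrees of freedom, two-sided, Benjamini-Hochberg over all tested genes). The test was checked on simulated data with independent noise at the SD typical of each level. Noise shared within a replicate, or an SD above the typical one as in the members, was not simulated. Members and lists were chosen with earlier results of these data known. Of the symbols on the pathway and marker lists, 13 not used in the table were found by their GENCODE M21 identifier. Values by library were given for Rsad2, Isg15, Irf7, Stat2, Mx1, Usp18, Ifit1 and Ddx58, for the smallest p of each role class, and for the extremes of SD and fold change. Pathway genes named were those past the test or with the smallest p in a list, and Ifnb1, Ifnar1, Ifnar2, Irf3, Irf1, Socs1 and Cxcl10. Some values of the pathway and marker lists are not reported here. Ifit3b, Ebi3 and the markers given alone were chosen after their values were seen. Promoters came from RefSeq. For the length and GC correction, splines with 4 knots in each were fitted per library to genes with a mean of at least 5. Figures were drawn with matplotlib 3.10.9.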

Additional observations from a re-analysis of the deposited data

How the results depend on the processing

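The limits are the 3 libraries per group, the spread between replicates, and estimated rather than counted reads. The median SD of the members was 0.52 with all libraries and 0.28 without replicate 3 of both groups. Replicate 3 was highest in both groups for 30 of 32 members, so a fall was built into that choice. The main count of genes past the limma test over the whole table, 211, moved to 12 with no filter, 464 with a mean log2 of at least 5, 1 with no trend in the prior, 566 with array weights and 35 after length and GC correction. Leaving out 1 library gave 0 to 451: 5, 3 and 0 without untreated replicates 1, 2 and 3, and 451, 0 and 0 without RvD1 replicates 1, 2 and 3. Without replicate 3 of both groups, chosen after seeing the data, it was 0 (2469 at an unadjusted p under 0.05). The cause was not tested.

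Of the 32 members, 0 passed under any of these settings except 1 without RvD1 replicate 1 (Trim25), so leaving out 1 library gave 0 to 1. The groups of 0 members were apart with all libraries, of 0 to 17 with 1 library left out (where 16.0% to 19.8% of all tested genes were apart and higher), and of 18 without replicate 3 of both groups, 17 of them higher (22.9% of all tested genes). The median log2 fold change of the members was 0.31 and 0.08 to 0.57 with 1 library left out. Tlr4 also lost its call with no filter (limma adjusted p = 0.0632), with no trend in the prior (0.197) and without replicate 3 of both groups (0.312). With array weights Tnfaip3 passed (limma adjusted p = 0.0463), and without RvD1 replicate 1 Parp11 passed (0.0407).

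The replicate numbers are shared by both groups, but the labels do not say that they mark a pairing. Deviations from the group means correlated at 0.30, -0.08 and 0.42 between libraries numbered 1, 2 and 3 (13176 genes with a mean log2 of at least 5). With 1 library numbered 1 or 3 left out, the lowest of these ranged from -0.093 to -0.034. Leaving out a library numbered 2 removes that pair, and the lowest of the remaining pairs was then 0.38 or 0.39. Replicate 2 did not correlate best with its own number, and the main fit did not use the numbers as pairs. The deviations of a group cancel out, so the value for number 2 is fixed by those of the other libraries. It is no separate evidence, and libraries numbered 1 and 3 did correlate best with their own number. The check therefore does not settle if the numbers mark pairs. With the replicate block, 1896 genes and 8 members passed (Zbp1, Oasl2, Usp18, Trim25, Rsad2, Cmpk2, Parp14 and Ifit2, all higher, where 5.55% of all tested genes were). Of the pathway genes named as not passing, the block also called Jak2 (limma adjusted p = 0.0317), Ifnar1 (0.0416), Tnfaip3 (0.0303) and Parp11 (0.0476) higher and Irf5 (0.0253) lower. It called 4 of 9 receptors and kinases, 4 of 17 adaptors and 9 of 58 further interferon-stimulated genes higher, and 1 of these 58 lower. With the replicate block on values corrected for length and GC, 746 of 18549 tested genes and 5 of the 32 members passed (Zbp1, Oasl2, Usp18, Rsad2 and Ifit2).

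Reversed log2 fold changes, none of them past the test, were as follows. With array weights Bst2 was 0.12 and Dhx58 0.13. After length and GC correction, with or without the replicate block, Bst2 was 0.15, Dhx58 0.076, Ifi35 0.084, Irf1 0.00036, Isg20 0.071 and Socs1 0.019. Without replicate 3 of both groups Dhx58 was 0.0010, Ifi35 0.10, Irf1 0.064 and Socs1 0.18. With 1 library left out, Irf9 ranged from -0.12 to 0.18, Oas1a from -0.13 to 0.35, Xaf1 from -0.11 to 0.45, Irf7 from -0.36 to 0.88, Oas3 from -0.14 to 0.58 and Rtp4 from -0.11 to 0.55. Likewise Bst2 ranged from -0.27 to 0.12, Dhx58 from -0.23 to 0.23, Ifi35 from -0.18 to 0.15, Irf1 from -0.13 to 0.051, Isg20 from -0.30 to 0.068 and Socs1 from -0.41 to 0.071. Pseudocount 8, quantile normalization and median centring reversed none of the named genes. Count tests with edgeR or DESeq2 were not run, since the values are not counts.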
